A study of Mus musculus with 8 samples.

Results

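The mRNAs of 9 genes were followed: the growth cone proteins Gap43, Basp1, Marcks and Marcksl1, the stathmins Stmn1, Stmn2, Stmn3 and Stmn4, and Nrn1, which encodes neuritin. They were chosen by name from the 38924 genes of each deposited table, and all 9 were found and passed the filter on low counts. The tables hold ribosome-associated mRNA from 8 mouse spinal cords, precipitated through an HA tag on the ribosomal protein Rpl22. Cre driven by Chat, the gene for the acetylcholine-synthesising enzyme, switches the tag on in cholinergic cells, which in the cord are chiefly motor neurons but also include cholinergic interneurons and autonomic neurons. Each of the 4 groups held 2 mice on a mixed B6.CgxB6.129 background, all Rpl22 +/- and, per the design text, Gars+/+. The Cre crushed group (animals 35 and 52, entered as Chat +/-, aged 18 and 9 weeks) had the sciatic nerve crushed on 1 side. The Cre uncrushed group (animals 3 and 10, 8 weeks) had no crush. The no-Cre crushed group (animals 51 and 58, entered as Chat +/+, 9 weeks) and the no-Cre uncrushed group (animals 4 and 6, 8 weeks) lack Cre and show what comes down without the tag. The genotype entries of Cre uncrushed animal 3 (Chat +/+) and no-Cre uncrushed animal 4 (Chat +/-) contradict their titles. Groups followed the titles, and results are also given without these 2 libraries where a call changes. Each library carries its own animal number. The p-values of edgeR set a difference against the spread between animals, pooled over the groups in a fit and drawn towards the spread of other genes. They do not rest on the 2 animals of a group alone. The time from crush to tissue collection is not stated in the labels.

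Gap43, Basp1 and Marcks encode acidic proteins of the inner face of the plasma membrane that bind acidic lipids and calmodulin, are phosphorylated by protein kinase C and shape the actin cortex of growing axon tips. Stathmins bind tubulin dimers and favour microtubule disassembly until kinases phosphorylate them. Stmn1 is cytosolic and widespread, whereas Stmn2, Stmn3 and Stmn4 carry a membrane anchor and are known from neurons. Neuritin is a lipid-anchored surface protein that promotes neurite outgrowth. Gap43 is a classic marker of motor and sensory neurons that regrow an axon after nerve injury.

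Libraries held 9401129 to 11522721 expected counts in the Cre crushed group, 8215026 to 9609300 in the Cre uncrushed, 4826979 to 6468110 in the no-Cre crushed and 4903056 to 5203850 in the no-Cre uncrushed group. Mitochondrial ribosomal RNA took 1.61% to 5.53% of counts with Cre and 11.47% to 48.2% without. Levels are therefore given as CPM, depth-normalised counts on TMM-scaled totals, a scaling that discounts such dominant RNAs, and 3 counts corresponded to 0.190 to 1.17 CPM. Chat stood at 78.2 to 126 CPM in the 4 Cre libraries and 3.83 to 5.16 CPM in the 4 no-Cre libraries, so its level followed the titles in animals 3 and 4 too. The injury gene Sprr1a reached 193 and 133 CPM in Cre crushed animals 35 and 52, against no more than 0.292 CPM in either Cre uncrushed animal. The summed level of 9 oligodendrocyte markers was 730 to 1867 CPM with Cre and 4758 to 7960 CPM without, and that of 8 motor neuron markers was 1979 to 2426 CPM against 97.5 to 183 CPM.

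Set against the no-Cre precipitates, the 9 mRNAs differed in direction. Stmn2, Stmn3 and Basp1 were higher with Cre in crushed and in uncrushed mice, Marcks, Marcksl1, Stmn4 and Nrn1 were lower with Cre in both, and Stmn1 was called in neither. Gap43 was called higher with Cre in crushed mice alone. In crushed mice 4 of the 9 were called higher, where 21.6% of the 15208 genes tested were, and 4 lower, where 21.3% were, or 42.9% of all genes in either direction. In uncrushed mice 3 were called higher, against 20.6% of all genes, and 4 lower, against 21.9%, or 42.5% in either direction. The called mRNAs were also those whose Cre and no-Cre libraries did not overlap. All genes with both Cre libraries above both no-Cre libraries were 37.9% in crushed and 36.2% in uncrushed mice, and those with both below were 40.3% and 35%. The median log2 fold change of the 9 was 0.36 in crushed mice, where that of all genes was -0.08, and 0.02 in uncrushed mice, where that of all genes was -0.03. The calls of Stmn2, Stmn3, Marcks and, in crushed mice, Basp1 and Gap43 held under every alternative scaling, tool, filter and left-out library that was run. Those of Stmn4, Nrn1 and Marcksl1 did not. In precipitates of whole cord, fewer cells of a type and less RNA per cell cannot be told apart.

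**Figure D1:**
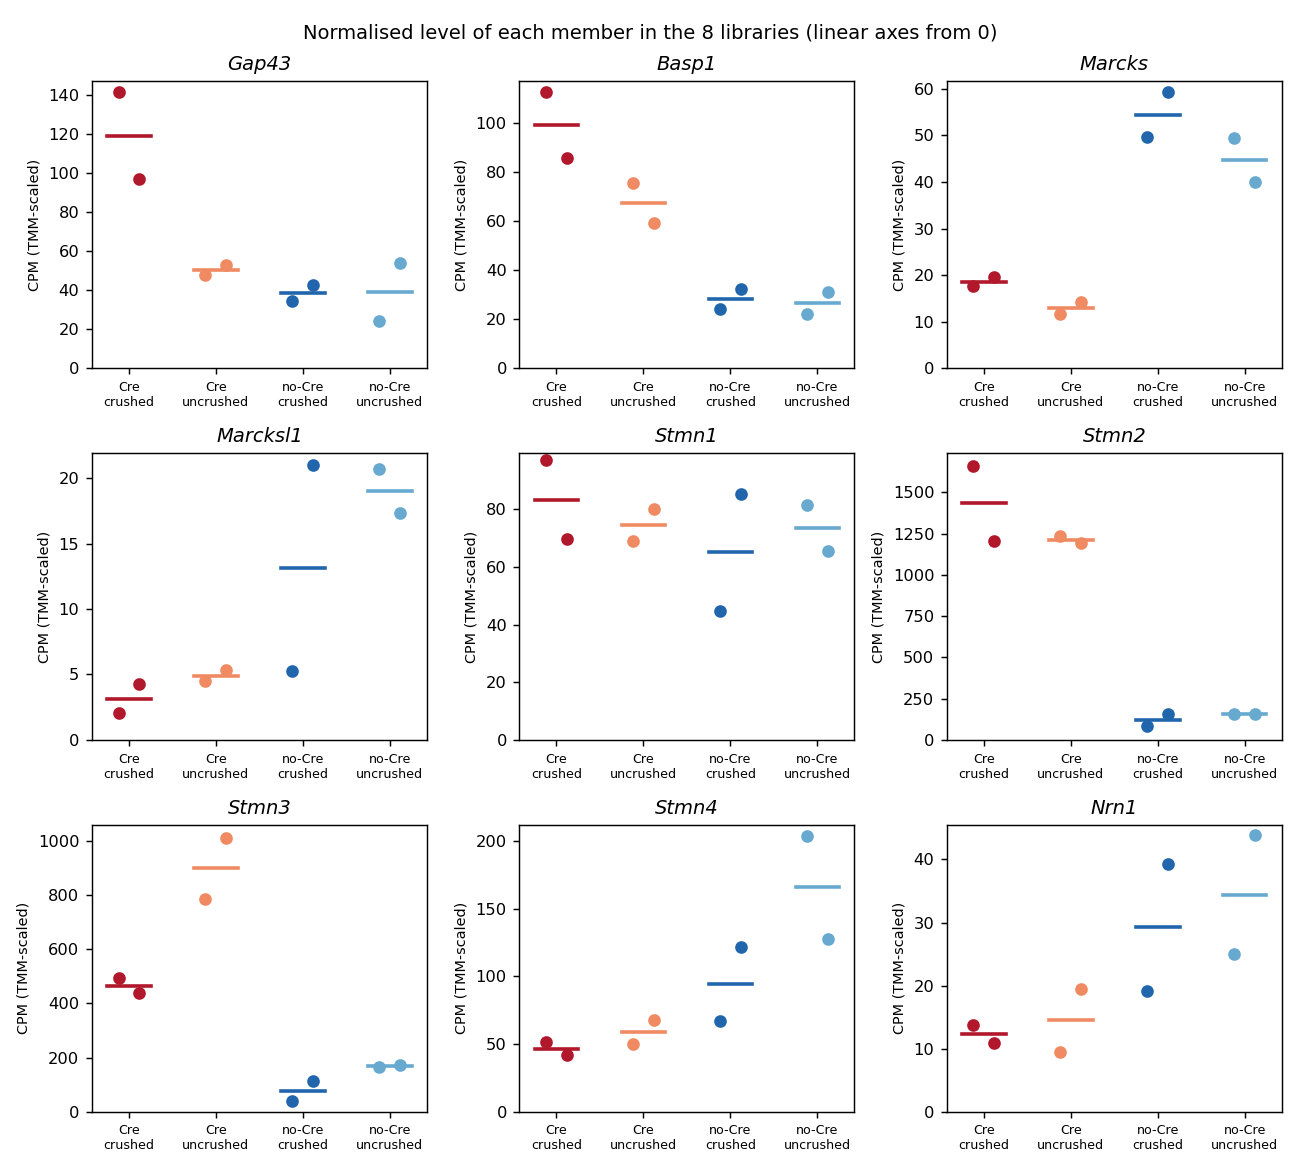
Normalised level (CPM of TMM-scaled totals, linear axes from 0) of each of the 9 mRNAs, with points for the 8 libraries and bars for the mean of each group of 2. Stmn2 and Stmn3 stand far above the no-Cre libraries in all 4 Cre libraries, Marcks stands below them in all 4, and the 2 Cre crushed libraries hold the highest Gap43 values, 142 and 97.0 CPM.

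Stmn2, the neuronal stathmin of growth cones, was the most enriched of the 9. It stood at 1661 and 1206 CPM in Cre crushed animals 35 and 52, against 86.5 and 159 CPM in no-Cre crushed animals 51 and 58. Among uncrushed mice it stood at 1233 and 1196 CPM in Cre animals 3 and 10, and at 158 CPM in each of no-Cre animals 4 and 6. The lowest Cre library thus lay above the highest no-Cre library by a wide margin. Stmn2 was 11.7-fold higher with Cre in crushed mice (log2 3.55 ± 0.34, adjusted p = 8.26e-05 by edgeR's quasi-likelihood test) and 7.69-fold higher in uncrushed mice (2.94 ± 0.33, adjusted p = 0.000124).

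Stmn3, a close relative with the same kind of membrane anchor, was also higher with Cre. It stood at 493 and 439 CPM in Cre crushed animals 35 and 52, against 38.1 and 112 CPM in no-Cre crushed animals 51 and 58. Without crush it stood at 787 and 1012 CPM in Cre animals 3 and 10, against 165 and 174 CPM in no-Cre animals 4 and 6. No Cre library overlapped a no-Cre library, and among the Cre libraries both crushed ones were the lower pair, as in 23.9% of all genes. The difference was 6.20-fold in crushed mice (log2 2.63 ± 0.42, adjusted p = 0.000734, edgeR) and 5.31-fold in uncrushed mice (2.41 ± 0.41, adjusted p = 0.00112). The crushed log2 value was 3.66 without no-Cre crushed animal 58 and 2.08 without animal 51, and was called in both.

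Stmn1 and Stmn4 behaved unlike these relatives. Stmn1, the widespread cytosolic stathmin, stood at 96.9 and 69.7 CPM in Cre crushed, 69.0 and 80.0 in Cre uncrushed, 44.8 and 85.3 in no-Cre crushed and 81.5 and 65.4 CPM in no-Cre uncrushed libraries. All 4 groups overlapped, with log2 differences of 0.36 ± 0.30 in crushed mice (95% interval -0.31 to 1.03, adjusted p = 0.354, edgeR) and 0.02 ± 0.31 in uncrushed mice (-0.66 to 0.70, adjusted p = 0.961). Without no-Cre crushed animal 58 the first became a call, at 0.94 and adjusted p = 0.0296. Stmn4 stood at 51.2 and 41.9 CPM in Cre crushed animals 35 and 52, against 66.8 and 121 CPM in no-Cre crushed animals 51 and 58. Among uncrushed mice it stood at 50.3 and 67.7 CPM with Cre and 204 and 128 CPM without, so that both Cre libraries lay below both no-Cre libraries in either condition. It was lower with Cre by log2 -1.01 ± 0.32 in crushed mice (adjusted p = 0.0271, edgeR) and -1.49 ± 0.33 in uncrushed mice (adjusted p = 0.00444). The first call was lost without Cre crushed animal 35 (-1.13, adjusted p = 0.0952) or 52 (-0.83, 0.166) or no-Cre crushed animal 58 (-0.47, 0.269), and the second without Cre uncrushed animal 3 (-1.26, 0.0608) or without both animals 3 and 4 (-0.87, 0.191). Scaling by library size alone ended both, at -0.76 (adjusted p = 0.0911) in crushed and -0.76 (0.0782) in uncrushed mice.

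Gap43, the growth-associated protein of regrowing axons, stood at 142 and 97.0 CPM in Cre crushed animals 35 and 52, against 34.3 and 42.8 CPM in no-Cre crushed animals 51 and 58. Without crush it stood at 47.7 and 52.8 CPM in Cre animals 3 and 10, against 24.2 and 54.0 CPM in no-Cre animals 4 and 6. The groups were apart in crushed mice and overlapped in uncrushed mice. Gap43 was 3.09-fold higher with Cre in crushed mice (log2 1.63 ± 0.33, adjusted p = 0.00311, edgeR), and was not called in uncrushed mice (0.35 ± 0.34, 95% interval -0.40 to 1.09, adjusted p = 0.428). The uncrushed value rested on the spread of the no-Cre animals: without animal 6 it became a call at 1.12 (adjusted p = 0.0269), and without animal 4 it was -0.07 (0.882). The difference between the crushed and the uncrushed enrichment, which is the interaction, was 1.28 ± 0.47 on the log2 scale (adjusted p = 0.830), so the comparison of the 2 conditions itself did not pass. It was 0.56 without no-Cre uncrushed animal 6 and 1.74 without animal 4.

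Basp1 encodes a membrane protein that, like Gap43, binds calmodulin and collects at growth cones. It stood at 113 and 85.7 CPM in Cre crushed animals 35 and 52, against 24.2 and 32.5 CPM in no-Cre crushed animals 51 and 58. Among uncrushed mice it stood at 75.8 and 59.3 CPM in Cre animals 3 and 10, against 22.2 and 31.3 CPM in no-Cre animals 4 and 6. Every Cre library lay above every no-Cre library. Basp1 was 3.51-fold higher with Cre in crushed mice (log2 1.81 ± 0.27, adjusted p = 0.000539, edgeR) and 2.51-fold higher in uncrushed mice (1.33 ± 0.28, adjusted p = 0.00334). The uncrushed call was lost when both libraries with contradictory genotype entries were left out (0.97, adjusted p = 0.106).

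Marcks, an abundant protein kinase C substrate that cross-links actin, went the other way. It stood at 17.7 and 19.5 CPM in Cre crushed animals 35 and 52, against 49.7 and 59.3 CPM in no-Cre crushed animals 51 and 58. Without crush it stood at 11.7 and 14.3 CPM in Cre animals 3 and 10, against 49.5 and 40.1 CPM in no-Cre animals 4 and 6. Both groups of Cre libraries lay below all 4 no-Cre libraries. Marcks was lower with Cre by log2 -1.55 ± 0.25 in crushed mice (adjusted p = 0.00073, edgeR) and -1.78 ± 0.26 in uncrushed mice (adjusted p = 0.000425).

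Marcksl1, the smaller relative of Marcks, was the scarcest of the 9 per length in Cre crushed libraries, at 32 and 54 counts, or 2.03 and 4.27 CPM, in animals 35 and 52. In no-Cre crushed animals 51 and 58 it stood at 5.29 and 21.0 CPM. Among uncrushed mice it stood at 4.48 and 5.33 CPM in Cre animals 3 and 10, against 20.7 and 17.4 CPM in no-Cre animals 4 and 6. No-Cre crushed animal 51 was the only no-Cre library near the Cre levels. The log2 difference was -2.06 ± 0.58 in crushed mice (adjusted p = 0.0152, edgeR) and -1.95 ± 0.59 in uncrushed mice (adjusted p = 0.0201). The crushed call was lost without Cre crushed animal 35 (-1.57, adjusted p = 0.139) or no-Cre crushed animal 58 (-0.71, 0.325). The uncrushed call was lost without any 1 of its 4 libraries, animals 3, 10, 4 and 6, at adjusted p = 0.118, 0.0766, 0.0781 and 0.0520, without both animals 3 and 4 (-1.66, 0.216), and with scaling by library size alone (-1.25, 0.0744). In the no-Cre crushed pair, summed markers of sensory ganglion neurons (1.63 CPM in animal 51 and 32.9 CPM in animal 58, over 8 markers) and of Schwann cells (145 and 425 CPM, over 4) also differed between the animals, and their part in the Marcksl1 values was not tested.

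Nrn1 stood at 13.8 and 10.8 CPM in Cre crushed animals 35 and 52, against 19.1 and 39.3 CPM in no-Cre crushed animals 51 and 58. Without crush it stood at 9.45 and 19.5 CPM in Cre animals 3 and 10, against 24.95 and 43.8 CPM in no-Cre animals 4 and 6. Both Cre libraries lay below both no-Cre libraries in either condition, though animals of a group differed by wide margins. Nrn1 was lower with Cre by log2 -1.24 ± 0.43 in crushed mice (adjusted p = 0.0368, edgeR) and -1.27 ± 0.44 in uncrushed mice (adjusted p = 0.0373). The crushed call was lost without Cre crushed animal 35 (-1.39, adjusted p = 0.110) or 52 (-1.03, 0.178), without no-Cre crushed animal 58 (-0.58, 0.358), and with scaling by library size alone (-0.97, 0.116). The uncrushed call was lost without Cre uncrushed animal 3 (-0.79, 0.267), no-Cre uncrushed animal 6 (-0.73, 0.294) or both animals 3 and 4 (-1.12, 0.148), and with scaling by library size alone (-0.66, 0.268). Nrn1 shares exon bases with Fars2 on the opposite strand in GENCODE M21, and the strand setting of the authors' counting is not stated, so reads of the pair may not be told apart. Its paralog Nrn1l had 0 to 3 counts in every library.

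**Figure D2:**
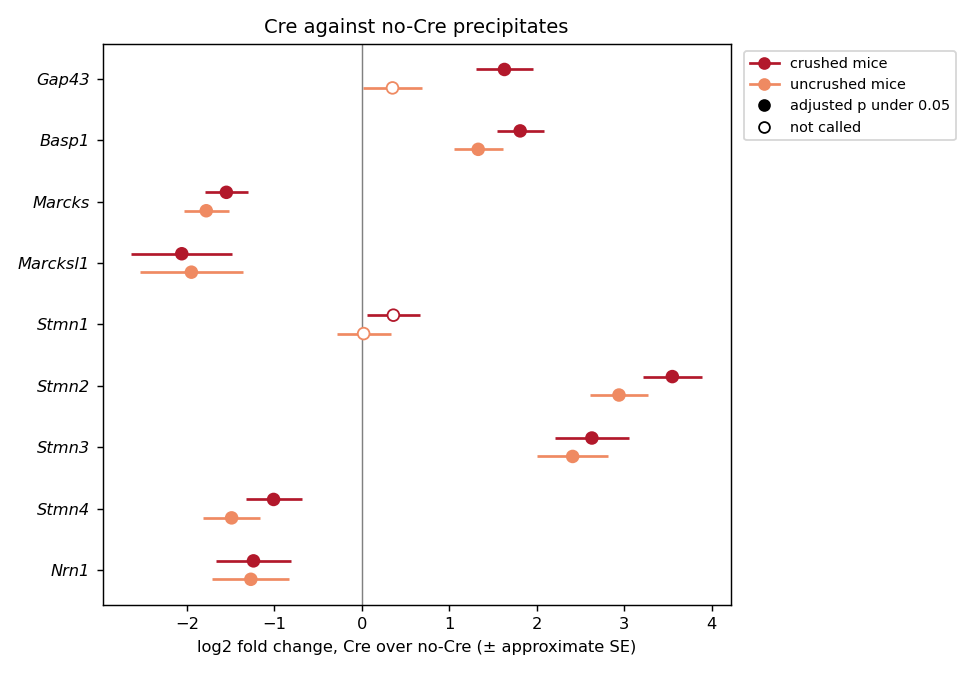
Log2 fold change of Cre over no-Cre precipitates for each of the 9 mRNAs in crushed (dark red) and uncrushed mice (orange), with bars for approximate standard errors (2 libraries per group) and filled points for an adjusted p under 0.05. Stmn2, Stmn3 and Basp1 lie right of 0 in both conditions, Marcks, Marcksl1, Stmn4 and Nrn1 left of 0 in both, and Gap43 is filled in crushed mice only, at 1.63 against 0.35.

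RefSeq promoter entries (GRCm38.p6) were matched for 3 of the 9 genes, Basp1, Stmn3 and Marcksl1. All 3 are shown, whatever their direction. Basp1 and Stmn3 were higher with Cre, and Marcksl1 was lower, a call that did not hold under every alternative. Each line gives the 250 bases before the annotated start, 5′ to 3′ on the strand of the gene, with motif matches in capitals. Both strands were searched for 5 motifs. The GC box was searched as GGGCGG. The CCAAT box was searched by its own letters, and the TATA box as TATAAA. The cyclic AMP response element was searched as TGACGTCA, and the AP-1 site as TGANTCA. Basp1 lies at chr15:25413765-25414014 (minus strand), Stmn3 at chr2:181314501-181314750 (minus strand) and Marcksl1 at chr4:129513331-129513580 (plus strand).
Basp1: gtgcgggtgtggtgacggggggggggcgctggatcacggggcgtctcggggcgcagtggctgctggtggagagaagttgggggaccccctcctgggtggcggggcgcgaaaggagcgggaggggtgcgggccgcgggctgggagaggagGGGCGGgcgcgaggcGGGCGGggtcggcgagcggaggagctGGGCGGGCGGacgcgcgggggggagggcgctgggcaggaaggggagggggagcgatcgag
Stmn3: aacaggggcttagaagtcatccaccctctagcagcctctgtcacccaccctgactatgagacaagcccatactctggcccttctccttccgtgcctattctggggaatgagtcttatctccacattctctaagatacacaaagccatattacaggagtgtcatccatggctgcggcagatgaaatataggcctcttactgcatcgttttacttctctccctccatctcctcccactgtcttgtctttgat
Marcksl1: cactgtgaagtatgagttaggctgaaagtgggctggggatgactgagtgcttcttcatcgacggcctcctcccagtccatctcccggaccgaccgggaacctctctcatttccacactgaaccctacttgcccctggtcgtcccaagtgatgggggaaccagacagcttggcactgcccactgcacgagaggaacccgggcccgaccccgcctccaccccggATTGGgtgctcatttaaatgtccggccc
The Basp1 window is 78.8% G and C and holds 4 GC boxes between 101 and 56 bases before the start, of which the last 2 overlap. A GC box was found in 32.7% of the 32851 promoters of the table. The Marcksl1 window, at 60.4% G and C, holds 1 CCAAT box on the opposite strand, 28 bases before the start, a motif found in 33.8% of promoters. None of the 5 motifs was found in the Stmn3 window, which is 48.8% G and C, where the median of all promoters is 52.4%. So the 2 genes that were both higher with Cre did not share a searched motif here, and AP-1 letters, found in 6.7% of promoters, were in none of these 3 windows.

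Per length, in TPM, the deposited unit that also divides by transcript length, stathmins led the 9 in every group. In Cre crushed libraries the order was Stmn2 at 1928 ± 402 TPM, Stmn3 at 1128 ± 74.8, Gap43 at 223 ± 55.5, Stmn1 at 221 ± 47.8, Basp1 at 138 ± 24.5, Stmn4 at 96.3 ± 11.4, Nrn1 at 19.9 ± 3.06, Marcks at 11.2 ± 0.983 and Marcksl1 at 5.15 ± 2.67 TPM (SD, n = 2). Gap43 and Stmn1 were the only neighbours in that order whose libraries overlapped. In Cre uncrushed libraries Stmn3 led at 1480 ± 16.4 TPM, ahead of Stmn2 at 1134 ± 212, Stmn1 at 135 ± 9.92, Stmn4 at 81.8 ± 4.31, Basp1 at 66.0 ± 22.0 and Gap43 at 64.6 ± 6.12 TPM. Here Stmn4 and Basp1, Basp1 and Gap43, and the scarce pair Marcksl1 and Marcks overlapped. Gap43 thus took place 3 of 9 in Cre crushed libraries and place 6 in Cre uncrushed libraries.

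Without Cre the 4 stathmins stood closer to each other. In no-Cre crushed libraries Stmn4 at 143 ± 14.2 TPM, Stmn1 at 130 ± 7.87, Stmn3 at 123 ± 31.5 and Stmn2 at 120 ± 8.24 TPM followed each other with overlapping libraries. In no-Cre uncrushed libraries Stmn3 stood at 129 ± 37.4, Stmn4 at 106 ± 13.3, Stmn2 at 66.6 ± 17.1 and Stmn1 at 59.9 ± 6.07 TPM. Gap43 followed the stathmins in both, at 56.2 ± 19.0 TPM in no-Cre crushed and 24.4 ± 18.2 TPM in no-Cre uncrushed libraries. TPM of different groups are not comparable as they stand, since mitochondrial RNA takes up more of the no-Cre libraries. The order within a library does not depend on that.

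Shares within the stathmin family avoid the scaling between libraries. Stmn2 made up 59.0% and 54.9% of the summed stathmin TPM in Cre crushed animals 35 and 52, against 43.2% and 36.6% in Cre uncrushed animals 3 and 10. Stmn3 made up 31.5% and 35.9% against 49.4% and 55.5%. So Stmn2 was the leading stathmin mRNA in both crushed Cre libraries, and Stmn3 in both uncrushed ones. Stmn1 stood at 6.78% and 6.24% in the crushed and 4.79% and 4.78% in the uncrushed Cre libraries, and Stmn4 at 2.78% and 2.95% against 2.65% and 3.16%. Without Cre, Stmn4 made up 29.7% and 25.7% in the crushed and 35.2% and 24.4% in the uncrushed libraries, far above its share in any Cre library.

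**Figure D3:**
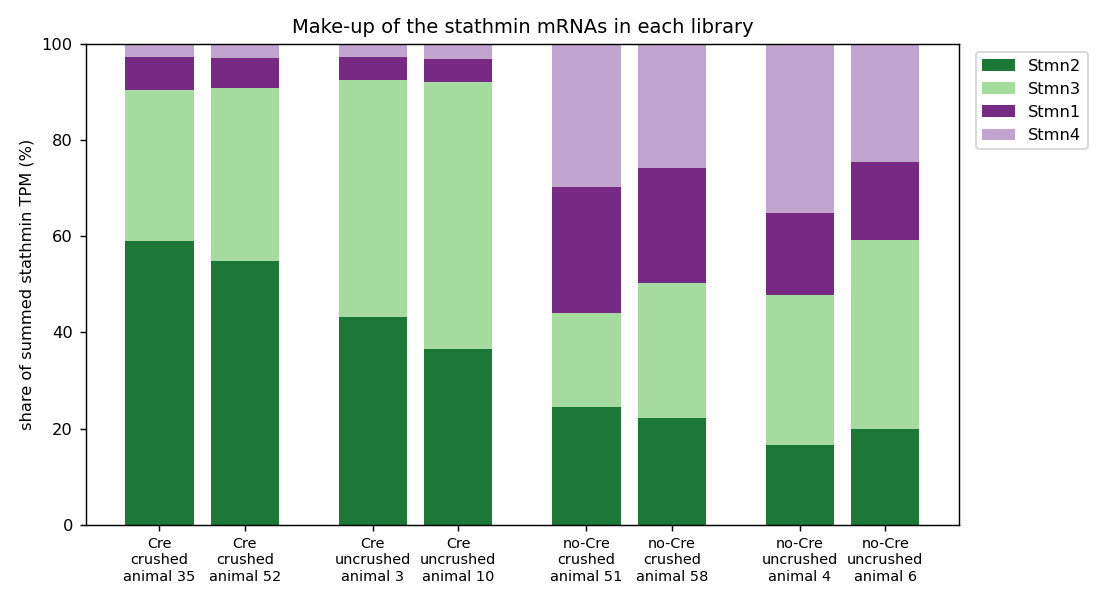
Share of each stathmin in the summed stathmin TPM (%, stacked bars from 0) in each of the 8 libraries. Stmn2 (dark green) takes 54.9% or more in the 2 Cre crushed libraries and 43.2% or less in the 2 Cre uncrushed ones, and Stmn1 and Stmn4 (purples) take up a much larger part of the no-Cre libraries.

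The ratio of Stmn2 to Stmn3 in TPM, a measure chosen after these values were seen, was 1.87 and 1.53 in Cre crushed animals 35 and 52, against 0.874 and 0.660 in Cre uncrushed animals 3 and 10. It was 1.26 and 0.791 in no-Cre crushed animals 51 and 58, against 0.533 and 0.507 in no-Cre uncrushed animals 4 and 6. Every crushed library had a higher ratio than either uncrushed library of the same genotype, with and without Cre. The log2 ratio was higher after crush by 1.16 with Cre and by 0.94 without, where a two-sided exact permutation test over 2 against 2 libraries gives p = 0.333, the smallest it allows. Permuted within Cre and no-Cre together the mean difference of 1.05 had an exact p = 0.0556, again the smallest possible. Because the ratio was chosen with this separation already seen, these p-values cannot test it, and no conclusion is drawn from them. The crushed mice were also older, at 9 to 18 weeks against 8 weeks, and the uncrushed titles share a number that the crushed ones lack, so crush cannot be told apart from either.

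Crush against no crush in the Cre precipitates asked which of these mRNAs differ in level there after nerve crush. The precipitates hold RNA of all tagged cholinergic cells and RNA that comes down without the tag. The differences in age and title named above apply here too. None of the 9 was called, where 0.0395% of the 15208 genes were called higher and 0.0329% lower, 0.0723% in all, that is 6 and 5 genes. At an unadjusted p under 0.05, which 1421 of the 15208 genes had, Gap43 stood higher and Stmn3 lower. DESeq2 called Gap43 alone of the 9, and 159 genes in all. The median log2 fold change of the 9 was 0.16, against 0.03 over all genes. The tissue was the entire cord and the crush unilateral, so injured and intact motor neurons are mixed in each crushed library.

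Gap43 had the largest difference of the 9. Its 142 and 97.0 CPM in Cre crushed animals 35 and 52 stood above the 47.7 and 52.8 CPM of Cre uncrushed animals 3 and 10. Both crushed libraries stood above both uncrushed ones in 26.1% of all genes. The Gap43 difference was 2.37-fold (log2 1.25 ± 0.33, adjusted p = 0.228, edgeR). The call depended on the fit. A fit of the Cre libraries alone gave adjusted p = 0.0434, DESeq2 0.038 and no filter on low counts 0.00258. The biological coefficient of variation was 0.201 with Cre and 0.323 without. In that fit of the Cre libraries alone 0.362% of 13808 genes were called higher and 0.529% lower, and Gap43 was the only one of the 9 called. Leaving out animal 35 gave 0.95, animal 52 gave 1.50, animal 3 gave 1.18 and animal 10 gave 1.31, none of them called. Gap43 did not differ in the no-Cre precipitates beyond their spread, at 34.3 and 42.8 CPM in crushed against 24.2 and 54.0 CPM in uncrushed mice (-0.03 ± 0.40, 95% interval -0.90 to 0.84, adjusted p = 0.991). Scaling by library size alone turned this last value to 0.84 (adjusted p = 0.329).

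Stmn3 stood lower after crush, with the interval of its change below 0 and the adjusted p short of the threshold. Its 493 and 439 CPM in Cre crushed libraries lay below the 787 and 1012 CPM of Cre uncrushed ones, a separation seen in 23.9% of all genes (log2 -0.95 ± 0.39, 95% interval -1.81 to -0.09, adjusted p = 0.489, edgeR). The same direction appeared without Cre, at 38.1 and 112 CPM in crushed against 165 and 174 CPM in uncrushed libraries (-1.17 ± 0.44, adjusted p = 0.672). That value turned on the crushed pair: it was -2.15 and called without animal 58 (adjusted p = 0.00140), and -0.59 without animal 51. Library size alone gave -0.38. The difference between both effects was 0.22 ± 0.56.

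The other 7 moved less. Basp1 (log2 0.55 ± 0.26, adjusted p = 0.557) and Marcks (0.52 ± 0.25, adjusted p = 0.570) stood higher in both crushed than in both uncrushed Cre libraries, as 26.1% of all genes did. Marcksl1 (-0.65 ± 0.58, adjusted p = 0.812) stood lower in both, as 23.9% of all genes did, at -0.20 without animal 35 and -1.26 without animal 52. Stmn1 (0.16 ± 0.30), Stmn2 (0.24 ± 0.31), Stmn4 (-0.34 ± 0.32) and Nrn1 (-0.22 ± 0.43) overlapped between the groups, at adjusted p of 0.825 to 0.935, and scaling by library size alone turned Stmn4 to 0.11 and Nrn1 to 0.24. The 95% interval of Stmn2, -0.44 to 0.92, includes a decrease as well as an increase.

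Without Cre, 0 of the 9 were called after crush, where 1 of 13394 genes (0.00747%) was called by edgeR and 988 had an unadjusted p under 0.05. DESeq2 called 59 genes and none of the members for which it gave an adjusted p, which it did not for Basp1, Marcksl1 and Nrn1. Stmn4 stood at 66.8 and 121 CPM in no-Cre crushed libraries against 204 and 128 CPM in no-Cre uncrushed ones (-0.82 ± 0.37, adjusted p = 0.676; 0.11 when scaled by library size alone), and Stmn3 was the only other member with an unadjusted p under 0.05. Both stood lower in both crushed libraries, as 19.8% of all genes did, and Marcks stood higher in both, as 19.5% did. For the interaction, the difference between the crush effects with and without Cre, 0 of the 9 and 0 of 15208 genes were called, with 905 at an unadjusted p under 0.05 and 15 called by DESeq2. Gap43 had the smallest p among the 9, given above, and the others ranged from -0.11 ± 0.79 (Marcksl1) to 0.60 ± 0.44 (Stmn2).

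**Figure D4:**
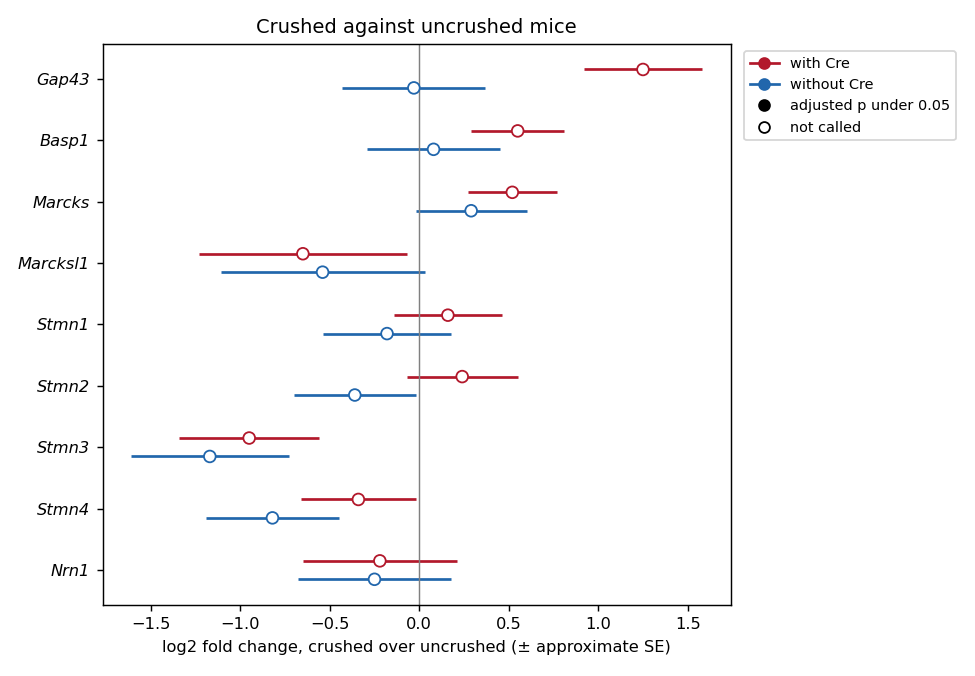
Log2 fold change of crushed over uncrushed mice for each of the 9 mRNAs with Cre (dark red) and without Cre (blue), with bars for approximate standard errors (2 libraries per group) and open points where the adjusted p is not under 0.05. All points are open. Gap43 with Cre lies farthest right at 1.25, and Stmn3 lies left of 0 with and without Cre, at -0.95 and -1.17.

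No marker of another cell type was called after crush with Cre, though sums of several glial and vascular marker lists stood higher in both crushed libraries. The summed level of 9 oligodendrocyte markers was 1126 and 1867 CPM in crushed animals 35 and 52, against 730 and 902 CPM in uncrushed animals 3 and 10. That of 7 astrocyte markers was 348 and 496 CPM against 193 and 215 CPM. The sum of 8 motor neuron markers stood lower in both crushed libraries, at 2155 and 1979 CPM against 2426 and 2282 CPM. So did that of 8 pan-neuronal markers, at 27760 and 25230 CPM against 34100 and 28560 CPM. The median log2 fold change was -0.26 for the motor neuron list and 0.06 for the pan-neuronal list. The 8 sensory ganglion neuron markers overlapped between the groups and summed to 12.8 CPM in animal 35 and 1.66 CPM in animal 52, against 1.56 and 7.02 CPM, and Scn10a, the sodium channel of pain-sensing neurons, stood at 5.76 and 0.0791 CPM against 0.195 and 1.95 CPM. In animal 52, 4 of these 8 markers had no count. The part of glial, vascular or sensory RNA, or of a lower share of motor neuron RNA, in the crush values was not tested.

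The partners of these proteins were read from lists of growth cone and kinase genes. Of all genes tested, 21.6% were called higher with Cre and 21.3% lower in crushed mice (median log2 fold change -0.08), and 20.6% and 21.9% in uncrushed mice (median -0.03), beside which each list's counts stand. After crush, edgeR called no gene of these 6 lists, with or without Cre. The most abundant member of each stood, with Cre, at log2 -0.37 ± 0.31 (Elavl2, RNA-binding), -0.57 ± 0.32 (Cfl1, actin), -0.29 ± 0.23 (Zdhhc17, palmitoylation), -0.63 ± 0.25 (Uhmk1, kinase), -0.44 ± 0.35 (Map1b, microtubule) and -0.62 ± 0.34 (Calm2, calmodulin), at adjusted p of 0.465 to 0.790. These genes do not stand for their lists. In the same order, the list medians after crush with Cre were -0.38, -0.11, 0.02, -0.28, -0.08 and -0.33, against 0.03 over all genes. Of 19 other microtubule proteins of growth cones, 13 were higher with Cre and 2 lower in crushed mice, and 12 and 3 in uncrushed mice. The list's median log2 fold change was 1.38 in crushed and 1.02 in uncrushed mice. Tubb3, a neuronal tubulin, was higher by 3.59 ± 0.28 and 2.68 ± 0.27, and Tuba1a, a tubulin of growing axons, by 2.55 ± 0.31 and 2.21 ± 0.30 in the same conditions. Crmp1, a collapsin response mediator protein, was higher by 1.69 ± 0.22 and 0.93 ± 0.22, and its relative Dpysl3 by 1.54 ± 0.24 and 1.83 ± 0.24. Dcx, the doublecortin of immature neurons, was lower with Cre by -2.22 ± 0.43 and -1.73 ± 0.47, Dpysl4 by -1.34 ± 0.46 and -1.90 ± 0.52, and Tubb2b by -1.35 ± 0.44 in uncrushed mice, where it stood at 0.44 ± 0.42, not called, in crushed mice.

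Of 17 actin proteins of growth cones, 11 were higher with Cre and 2 lower in crushed mice (median 1.44, against -0.08 over all genes), and 12 and 2 in uncrushed mice (median 1.53). The cyclase-associated protein Cap1 (1.84 ± 0.23 and 1.61 ± 0.24) and the neuronal profilin Pfn2 (2.04 ± 0.27 and 1.92 ± 0.28) were higher in both. The cortical actin protein Cttn (1.44 ± 0.22 and 1.29 ± 0.22) and the drebrin-like Dbnl (1.99 ± 0.32 and 2.33 ± 0.35) were also higher in both. Fscn1, the actin-bundling fascin, was lower in both (-1.06 ± 0.34 and -2.40 ± 0.35), and Enah in crushed mice (-1.0 ± 0.35), with -0.52 ± 0.35, not called, in uncrushed mice. Dbn1, the actin-binding drebrin, was higher with Cre in crushed mice (0.80 ± 0.23) and lower in uncrushed mice (-0.94 ± 0.23). Its mean level was alike in Cre crushed and Cre uncrushed libraries, at 37.7 and 36.8 CPM. The change of sign lay in the no-Cre libraries, at 21.8 CPM in crushed and 70.4 CPM in uncrushed mice. No gene, Dbn1 included, was called in the interaction.

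Of 13 genes for protein kinase C, calmodulin and related calmodulin-binding proteins, 5 were higher and 3 lower with Cre in crushed mice (median 0.51), where 21.6% and 21.3% of all genes were, and 5 and 1 in uncrushed mice (median 0.59). The calmodulin gene Calm2 was higher with Cre by 2.65 ± 0.36 in crushed and 2.24 ± 0.35 in uncrushed mice. Calm3 (1.22 ± 0.31 and 1.2 ± 0.31) and the kinase gene Prkcd (1.30 ± 0.29 and 1.06 ± 0.31) were also higher in both. The kinase gene Prkca (-1.03 ± 0.31) and Nrgn, a postsynaptic calmodulin-binding protein (-2.79 ± 0.85), were lower with Cre in crushed mice, and stood at -0.77 ± 0.31 and -1.44 ± 0.86, not called, in uncrushed mice. Nrgn was scarce, with means of 0.395 CPM in Cre crushed and 2.82 CPM in no-Cre crushed libraries. There 3 counts corresponded to 0.19 to 0.237 CPM and 0.407 to 0.5 CPM, so its value rests on few reads. Among kinases known to phosphorylate stathmins, 12 of 14 were tested, and 9 were higher and 2 lower in crushed mice (median 0.94), and 8 and 2 in uncrushed mice (median 0.90). The stress kinase Mapk9 (1.55 ± 0.23 and 1.41 ± 0.23), the protein kinase A subunit Prkaca (1.73 ± 0.28 and 1.63 ± 0.28) and Pak1 (1.32 ± 0.23 and 1.26 ± 0.23) were higher. The calmodulin-dependent kinases Camk2a (-1.78 ± 0.26 and -2.12 ± 0.27) and Camk4 (-0.94 ± 0.23 and -1.17 ± 0.24) were lower.

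Lipid anchors are added to Marcks and Basp1 by N-myristoyltransferase and to Gap43 and the membrane-bound stathmins by palmitoyltransferases. Of 8 such transferases and thioesterases, 4 were higher with Cre and 0 lower in each condition (medians 0.88 and 0.75), where 21.6% of all genes were higher in crushed and 20.6% in uncrushed mice. Nmt1 was higher by 1.39 ± 0.26 in crushed and 1.32 ± 0.26 in uncrushed mice, and Lypla2, a depalmitoylating enzyme, by 2.39 ± 0.46 and 2.15 ± 0.47, and Lypla1 by 1.17 ± 0.30 and 1.03 ± 0.32. Zdhhc15 was higher by 2.27 ± 0.57 in uncrushed mice and stood at 0.82 ± 0.46, not called, in crushed mice. Its uncrushed value set a mean of 7.68 CPM with Cre against 1.58 CPM without. In those no-Cre libraries 3 counts corresponded to 0.801 and 1.17 CPM, so the lower level rests on few reads. Of 7 RNA-binding proteins known for Gap43 mRNA or for human STMN2 splicing, 6 were tested, and 2 were higher and 0 lower in each condition (medians 0.26 and 0.39), where 21.6% and 20.6% of all genes were higher. They were Elavl4, which binds Gap43 mRNA (1.71 ± 0.27 and 1.49 ± 0.28), and its relative Elavl2 (1.59 ± 0.32 and 1.83 ± 0.32). Within each comparison the values of the 9 and of these lists rest on the same libraries.

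Genes with the most similar profiles were sought among 13362 other named genes, by the root mean square difference between log2 CPM profiles over the 8 libraries, each centred on its mean. The nearest to Stmn2 were Rab3b (0.122), Cd24a (0.150) and Uchl1 (0.177), and to Stmn3 Calm2 (0.255), Nme1 (0.257) and Ywhag (0.294). The nearest to Gap43 were Alkbh3 (0.220), Zfp385b (0.271) and Grpel1 (0.296), and to Basp1 Atp5c1 (0.081), Got2 (0.129) and Rbfox3 (0.131). Marcks was nearest to Klhl5 (0.101), Myo1d (0.119) and Dbt (0.128), Marcksl1 to Acot2 (0.275), Gcm1 (0.315) and Mt1 (0.342), and Nrn1 to Mgst1 (0.107), Hmgn1 (0.199) and Lum (0.229). Stmn1 was nearest to Tmem167b (0.114), Odc1 (0.160) and Ube2d2a (0.161), and Stmn4 to Tpm4 (0.131), Hoxb7 (0.152) and Hirip3 (0.182). Among themselves, Gap43 and Basp1 differed least (0.414), ahead of Stmn4 and Nrn1 (0.455) and Marcksl1 and Stmn4 (0.549). Stmn2 and Marcksl1 differed most (2.61).

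The mix of transcripts could be read only where the deposited gene length, a mean over a gene's transcripts, varied between libraries. For Stmn2, Stmn3, Basp1, Marcks and Marcksl1 it was the same in all 8. For Stmn4 it was 1306 and 1293 bases in Cre crushed, 1320 and 1305 in Cre uncrushed, 1279 and 1309 in no-Cre crushed and 1229 and 1314 bases in no-Cre uncrushed libraries, and for Stmn1 it ranged from 1012 to 1057 bases over the 8, and both no-Cre crushed libraries (1012 and 1027) were the shortest. For Gap43 it was 1418 bases in Cre crushed animal 35 and 1420 elsewhere, and for Nrn1 1596 in no-Cre crushed animal 58 and 1619 elsewhere. Whether the Stmn4 shifts bear on its differences in level between Cre and no-Cre libraries was not tested. Stmn1 was called in no comparison of the main fits. The stathmin-related gene Stmnd1 had 0 to 3 counts and the copy Marcksl1-ps4 0 or 1 count per library, and Stmn1 shares exon bases with the microRNA gene Gm23634.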

How the data were processed

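Ribosome-associated RNA of 8 mouse spinal cords was sequenced, and the deposited tables give expected counts, TPM and a mean transcript length per gene. The authors used Bowtie2 2.2.0 and RSEM 1.2.12, per the submitters' processing notes; the genome build is not named there and the strand setting is unknown. The expected counts that the authors deposited were rounded to whole numbers for the tests. The TPM values, as deposited, were used only to compare genes within a library.

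Counts were tested in R 4.3.3 with edgeR 4.0.16 (quasi-likelihood F test, two-sided, TMM scaling, filterByExpr with a minimum count of 10 and total of 15), with Benjamini-Hochberg adjustment over all genes tested and a threshold of 0.05. One fit of all 8 libraries gave every comparison except crush without Cre, which used the 4 no-Cre libraries. Values after ± are SD for levels and approximate standard errors for log2 fold changes, the latter taken as the fold change over the root of F, with 95% intervals on the fit's degrees of freedom. The 2 mice of a group limit precision, and intervals and floors of 3 counts cover counting error or the fitted spread only. The procedure was also run on simulated counts with a common spread for all genes within Cre and within no-Cre libraries. Spread differs between genes in real libraries, so no result here rests on that run.

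Alternatives were DESeq2 1.42.0, its size factors, library size alone, scaling by 8 motor neuron markers, no filter, other libraries in the fit, TPM without mitochondrial genes, leaving out each library, and leaving out both with contradictory entries. The members, lists and tests were chosen with earlier results of these data known. Of each list, up to 3 called genes per direction with the smallest p are named, or the most abundant where none was called. Some genes that this rule names are not reported here. Of 145 listed symbols besides the 9, 144 were matched. Names were matched for 37607 gene IDs (96.6%).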

Additional observations from a re-analysis of the deposited data

How the results depend on the processing

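Over the 9 mRNAs and the alternatives run, the comparison of Cre with no-Cre kept direction and side of the threshold in 79 cases, gained 1 call and lost 10 in crushed mice, and in uncrushed mice it kept 70, gained 1, lost 14 and changed sign in 5. Crush with Cre kept 90, gained 3 and changed sign in 6, crush without Cre kept 70, gained 1 and changed sign in 16 (cases with no adjusted p from DESeq2 left out), and the interaction kept the rest and changed sign in 16. The cause was not tested.

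For crush with Cre, DESeq2, no filter and a fit of the Cre libraries alone each called 1 of the 9, Gap43, and 159, 269 and 123 genes in all, where 11 were called. Scaling by motor neuron markers called 38, leaving out both animals with contradictory entries 5, and leaving out any 1 library 7. For crush without Cre, where 1 gene was called, library size alone gave 96, DESeq2 59, no filter 134, all 8 libraries 11, the fit without contradictory entries 0, and leaving out 1 library 0 to 127, with 0 to 1 of the 9 called lower. For the interaction, DESeq2 called 15 and no filter 90 genes. For Cre against no-Cre in crushed mice, library size alone left 2 of the 9 called lower, and leaving out 1 library 1 to 4, with 2733 to 5375 genes in all. In uncrushed mice, library size alone and the fit without contradictory entries each left 1 called lower, the second with 3299 genes, and leaving out 1 library 1 to 3, with 3802 to 6024 genes.

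Library size alone shifted the all-gene median log2 fold change by 0.44 (crush with Cre), 0.96 (crush without Cre), -0.53 (interaction), 0.14 (Cre against no-Cre, crushed) and 0.68 (uncrushed), and put the higher calls at 72.7% of calls (54.5% with TMM) for crush with Cre, 93.8% (0% with TMM) for crush without Cre, and 59.7% (50.4%) and 76.5% (48.5%) for Cre against no-Cre in crushed and uncrushed mice. It turned, without Cre, Gap43 to 0.84, Marcksl1 to 0.25, Stmn1 to 0.72, Stmn2 to 0.51, Stmn4 to 0.11 and Nrn1 to 0.56, with Cre Stmn4 to 0.11 and Nrn1 to 0.24, and in the interaction Marcks to -0.29, Stmn1 to -0.11, Stmn3 to -0.12 and Nrn1 to -0.32. Motor neuron marker scaling turned Nrn1 to 0.07. Without contradictory entries Basp1 was -0.14 (crush without Cre), and in the interaction Marcks was -0.06, Stmn4 -0.09 and Nrn1 -0.07. DESeq2 and its size factors gave -0.01 for Stmn1 in uncrushed mice.

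Leaving out 1 library gave, for crush with Cre, -0.65 to 0.38 (Nrn1), -0.10 to 0.39 (Stmn1) and -0.01 to 0.46 (Stmn2). For crush without Cre it gave -0.16 to 0.36 (Basp1), -0.50 to 0.69 (Gap43), -1.84 to 0.15 (Marcksl1), -0.86 to 0.24 (Nrn1), -0.71 to 0.22 (Stmn1) and -0.87 to 0.02 (Stmn2). For the interaction it gave -0.80 to 1.19 (Marcksl1), -0.46 to 0.64 (Nrn1), -0.06 to 0.87 (Stmn1) and -0.36 to 1.2 (Stmn3), and for Cre against no-Cre in uncrushed mice -0.07 to 1.12 (Gap43) and -0.06 to 0.22 (Stmn1). Where a group kept 1 library, that library is assumed to vary like the others.

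Without mitochondrial genes the summed TPM of the 9 was 3310 in Cre uncrushed (2988 as deposited), 1368 in no-Cre crushed (675 as deposited) and 1154 in no-Cre uncrushed libraries (434 as deposited). The log2 ratio of Stmn2 to Stmn3 after crush with Cre was 0.95 to 1.36 when 1 library was left out and 1.16 in expected counts, alternatives chosen after seeing the data. No paired analysis was possible because each animal number belongs to a single group.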
